A study of Rattus norvegicus with 4 samples.

Results

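The genes described here are those of the neuronal intermediate filaments, chosen by symbol alone: the neurofilament light, medium and heavy chains (Nefl, Nefm and Nefh), alpha-internexin (Ina) and peripherin (Prph). Of these 5 genes, 4 had a row among the 21648 gene identifiers of the count table, and each had 1 row. Prph was not analysed here. The samples were cortical neurons from rat embryos of day 18, obtained from a supplier, plated in a neural induction medium and moved to a supplemented neuronal medium the next day. One group had been given topotecan and the other DMSO, with 2 libraries of total RNA in each. Topotecan blocks topoisomerase I, the enzyme that relieves the twist that transcription puts into DNA, and the submitters chose it to reduce expression from long genes. No label used here states the dose of topotecan, the length of exposure or whether the libraries came from separate cultures, so the p-values below measure only the spread between these libraries, which may be technical.

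Neuronal intermediate filaments are ropes of coiled-coil proteins that fill axons and set their calibre, and with it the speed of conduction. Nefl is the core subunit, and Nefm and Nefh co-assemble with it and carry long tails rich in Lys-Ser-Pro repeats that are phosphorylated in axons. Ina is abundant in young central neurons and co-assembles with the neurofilament chains, whereas Prph is mostly a protein of peripheral neurons. In the developing rodent brain Ina, Nefl and Nefm appear early and Nefh later, as axons mature.

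The topotecan libraries held 31181382 and 25459488 gene counts, and the DMSO libraries 27347410 and 22957786. Cultures of both groups carried the markers of neurons, and all 12 genes of a pan-neuronal list were measured. The DMSO cultures also held glial RNA that was nearly gone after topotecan. Each of 10 astrocyte markers fell, as did each of 10 markers of the oligodendrocyte lineage, and Sox10, which defines that lineage, had 0 counts in both topotecan libraries. Summed over each list, astrocyte markers stood at 115 and 127 CPM (counts per 1000000 scaled counts) in topotecan, against 4549 and 4625 CPM in DMSO, and oligodendrocyte markers at 136 and 123 CPM in topotecan, against 4008 and 4308 CPM in DMSO. The summed level of the pan-neuronal list was 27092 and 28090 CPM in topotecan and 23830 and 22237 CPM in DMSO. As CPM are shares of a library, a gene held only by neurons can take a larger share when glial RNA is lost, and fewer cells of a type and less RNA per cell cannot be told apart in such bulk samples. The change of each filament gene is therefore also given relative to the pan-neuronal list, as is that of some other genes whose call differs there. The summed list is weighted towards its most abundant genes. Of these, Tubb3 averaged 10980 CPM in topotecan and 8593 CPM in DMSO, and Uchl1 averaged 4274 CPM in topotecan and 2491 CPM in DMSO. Of the 12 genes 5 were called higher and 3 lower, beside 16.2% higher and 23.5% lower over all genes tested. This scale thus does not measure neuron content alone.

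The filament genes did not move together. Nefh fell by 66.1%, Nefm and Ina were 31.2% and 30.1% higher as shares of the library, and Nefl did not pass the test. In the test across all 12162 genes that passed the filter on low counts, edgeR's quasi-likelihood test with Benjamini-Hochberg adjusted p under 0.05, 1 of the 4 filament genes was lower and 2 were higher in topotecan. Of all genes tested, 23.5% were lower and 16.2% higher, 39.7% in all, so that calls as such were common in this comparison.

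**Figure D1:**
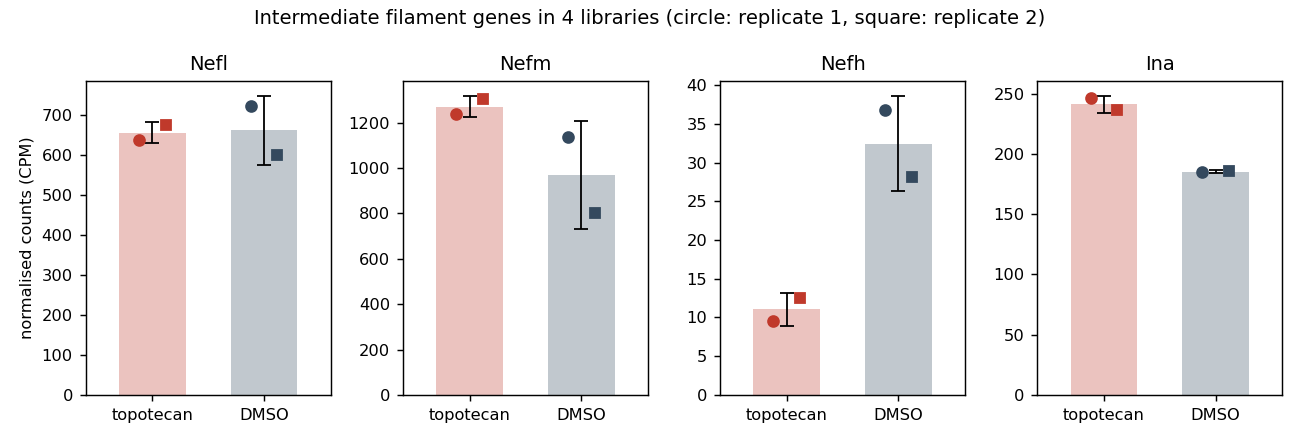
Normalised counts (CPM, vertical axis from 0 in each panel) of the 4 filament genes in topotecan and DMSO libraries; bars are means, error bars are SD over 2 libraries, and points are single libraries. Nefh lies near 11.1 CPM in topotecan and 32.4 CPM in DMSO, Nefm and Ina lie higher in both topotecan libraries, and the Nefl points of the groups overlap.

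Nefl (ENSRNOG00000013658), the light chain on which the other neurofilament chains assemble, had 19552 and 17016 counts in the topotecan libraries and 19936 and 14030 in the DMSO libraries. After scaling this was 638 and 675 CPM in topotecan and 723 and 601 CPM in DMSO. The topotecan values lay between the DMSO values, so the groups overlapped. The means were 656 ± 26.1 CPM in topotecan and 662 ± 86.2 CPM in DMSO (SD, n = 2 each), with a log2 fold change of -0.01 (SE 0.09, edgeR adjusted p = 0.927). With libraries scaled to the summed pan-neuronal list the log2 fold change of Nefl was -0.27 (SE 0.09, edgeR adjusted p = 0.026), and relative to the median ratio of that list it was -0.13 (SE 0.10, edgeR adjusted p = 0.306).

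Nefm (ENSRNOG00000013916), the medium chain, had the most counts of the family. It had 37934 and 32870 counts in topotecan and 31323 and 18712 in DMSO, or 1238 and 1304 CPM in topotecan and 1136 and 801 CPM in DMSO. Both topotecan libraries lay above both DMSO libraries, and the DMSO libraries lay far apart. The means were 1271 ± 46.6 CPM in topotecan and 969 ± 236 CPM in DMSO (SD, n = 2 each), with a log2 fold change of 0.39 (SE 0.12, edgeR adjusted p = 0.0189). The call rested on DMSO replicate 2. Without that library the log2 fold change of Nefm was 0.16 and did not pass (edgeR adjusted p = 0.0842), and without DMSO replicate 1 it was 0.68. With a library left out, 1 residual degree of freedom remains and the lone library of a group is assumed to vary like the other group, so these fits show values more than significance. DESeq2 gave 0.40 with an adjusted p of 0.228. Against the summed pan-neuronal list Nefm was at 0.14 (adjusted p = 0.334), and against the median ratio of that list at 0.27 (adjusted p = 0.105).

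Nefh (ENSRNOG00000008716), the heavy chain, had 293 and 317 counts in topotecan and 1015 and 656 in DMSO. This was 9.56 and 12.6 CPM in topotecan and 36.8 and 28.1 CPM in DMSO. Both topotecan libraries lay far below both DMSO libraries. The means were 11.1 ± 2.13 CPM in topotecan and 32.4 ± 6.16 CPM in DMSO (SD, n = 2 each), with a log2 fold change of -1.56 (SE 0.16, edgeR adjusted p = 4.6e-06). The fall passed the threshold in every setting listed in the plot of settings, with log2 fold changes between -1.82 relative to the summed pan-neuronal list and -1.34 without DMSO replicate 1.

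Ina (ENSRNOG00000020248), alpha-internexin, had 7538 and 5953 counts in topotecan and 5094 and 4341 in DMSO. This was 246 and 236 CPM in topotecan and 185 and 186 CPM in DMSO. The libraries of each group lay close together and the groups did not overlap. The means were 241 ± 6.97 CPM in topotecan and 185 ± 0.862 CPM in DMSO (SD, n = 2 each), with a log2 fold change of 0.38 (SE 0.08, edgeR adjusted p = 0.00153). Leaving out any 1 of the libraries gave 0.35 to 0.41. Scaled to the summed pan-neuronal list the log2 fold change of Ina was 0.12 (adjusted p = 0.369), and relative to the median ratio of that list 0.26 (adjusted p = 0.0244).

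Over all tested genes, both topotecan libraries lay above both DMSO libraries for 33.7% and below them for 36.9%. Nefm and Ina were of the kind that lay above, and Nefh was of the kind that lay below.

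**Figure D2:**
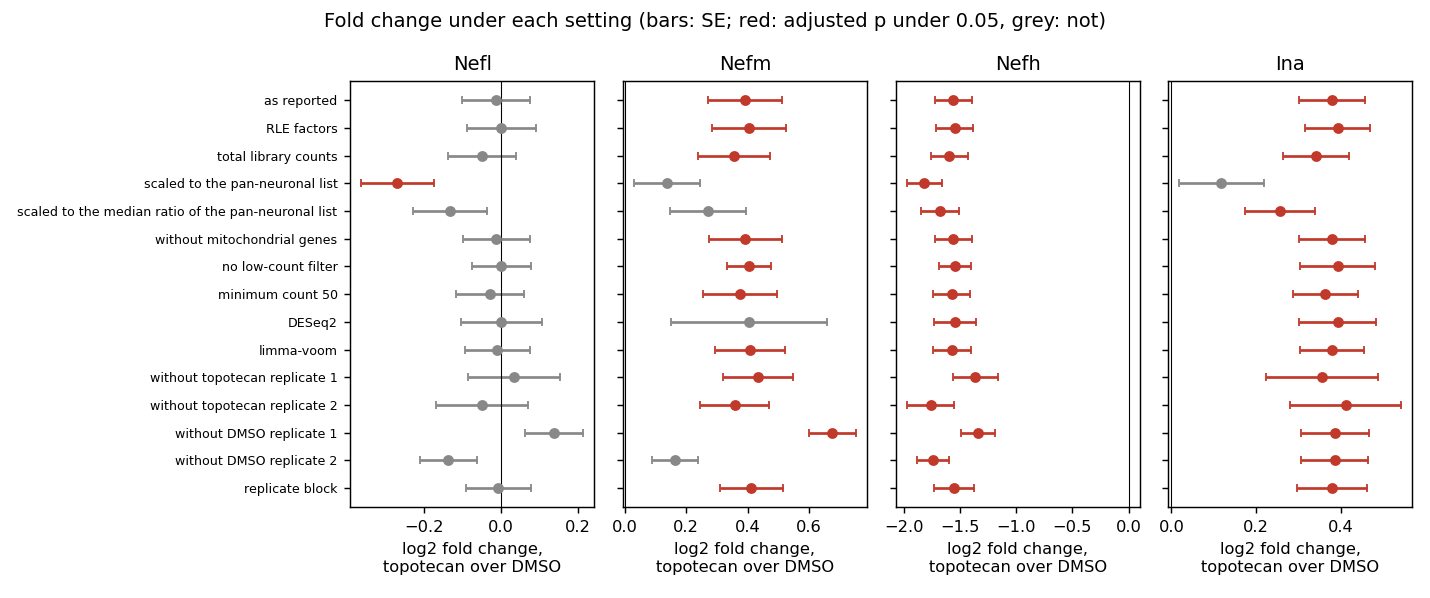
Log2 fold change, topotecan over DMSO (horizontal axis), of each filament gene under each way of scaling, filtering, testing or leaving out a library (rows); bars are SE, red marks an adjusted p under 0.05 and grey one above it. Nefh stays between -1.82 and -1.34, Ina and Nefm turn grey when libraries are scaled to the summed pan-neuronal list, and Nefl turns red in that setting alone.

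The neurofilament chains varied between the DMSO libraries more than most genes did. DMSO replicate 1 exceeded DMSO replicate 2 by a factor of 1.20 for Nefl, 1.42 for Nefm and 1.31 for Nefh, after scaling for depth, whereas the factor was 0.993 for Ina. For Nefm the gap was wider than in 99.2% of the 240 tested genes with a mean log2 CPM within 1 of it. The share was 90.8% of 476 genes for Nefl and 91.1% of 3174 genes for Nefh, and 4.72% of 1442 genes for Ina. Between the topotecan libraries the factor, replicate 1 over replicate 2, was 0.945 for Nefl, 0.949 for Nefm, 0.760 for Nefh and 1.04 for Ina. Thus Nefl, Nefm and Nefh were all higher in replicate 1 of DMSO and in replicate 2 of topotecan. The topotecan gap of Nefh was wider than in 96.3% of tested genes of like abundance. For Nefl, Nefm and Ina this share was 65.5%, 60.4% and 48.6%.

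Ratios between the filament genes within a library do not depend on how libraries are scaled. Counts are not given per length here, so these ratios are not ratios of molecules, but their change between libraries can be read. The log2 ratio of Nefm to Nefh was 7.02 and 6.70 in topotecan, against 4.95 and 4.83 in DMSO, a difference of 1.97. The log2 ratio of Nefl to Nefh was 6.06 and 5.75 in topotecan, against 4.30 and 4.42 in DMSO, a difference of 1.55. Both ratios moved by far more than the gap between replicates, with Nefh lower relative to each of its partner chains. The log2 ratio of Nefh to Ina was -4.69 and -4.23 in topotecan, against -2.33 and -2.73 in DMSO, a difference of -1.93.

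The remaining pairs moved less. The log2 ratio of Nefl to Nefm was -0.96 and -0.95 in topotecan, against -0.65 and -0.42 in DMSO, and that of Nefl to Ina was 1.38 and 1.52 in topotecan, against 1.97 and 1.69 in DMSO. Light chain RNA was thus lower relative to both medium chain and internexin RNA in topotecan, by 0.42 and 0.39 on the log2 scale, with no overlap between the groups. The log2 ratio of Nefm to Ina was 2.33 and 2.47 in topotecan and 2.62 and 2.11 in DMSO, so here the groups overlapped. Of the 6 pairs, 5 separated the groups, each with an exact two-sided permutation p of 0.333, the smallest that 2 libraries against 2 allow. Separation was common among single genes, with 33.7% of those tested above and 36.9% below. The share over all pairs of genes was not computed, and pairs that hold the same gene are not independent.

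**Figure D3:**
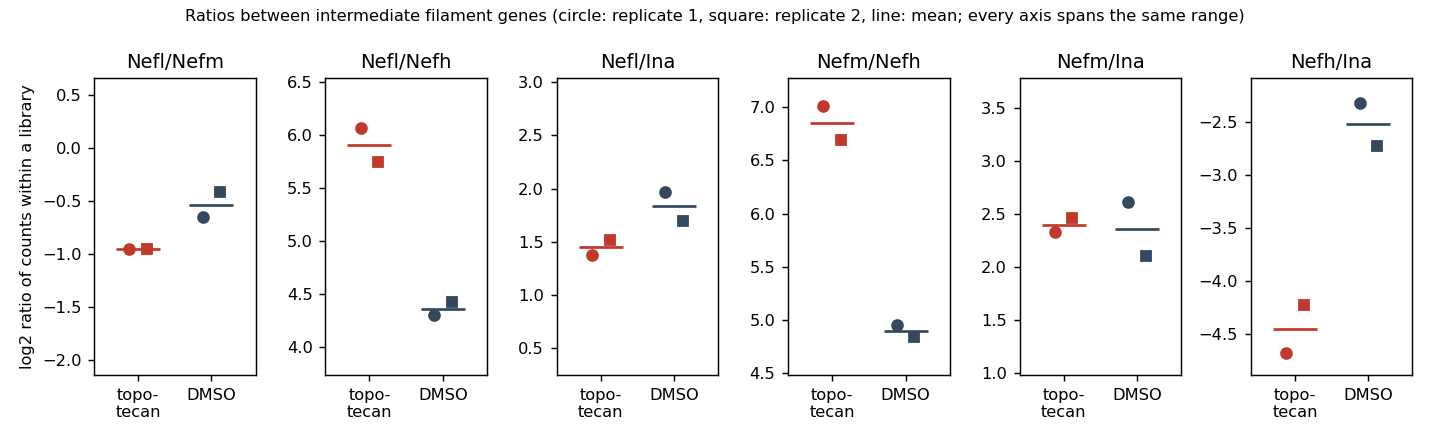
Log2 ratio of counts within each library (vertical axes, all of equal range) for the 6 pairs of filament genes, topotecan and DMSO; points are single libraries and lines are group means. The 3 pairs that hold Nefh show the widest gaps, and Nefm/Ina is the pair whose groups overlap.

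As shares of the summed counts of the 4 genes, Nefh made up 0.449% and 0.564% in topotecan, against 1.77% and 1.74% in DMSO. Nefl made up 29.9% and 30.3% in topotecan, against 34.8% and 37.2% in DMSO, and Nefm 58.1% and 58.5% in topotecan, against 54.6% and 49.6% in DMSO. Ina took 11.5% and 10.6% in topotecan, against 8.88% and 11.5% in DMSO. The pool of filament RNA itself, at 2131 and 2227 CPM in topotecan and 2080 and 1616 CPM in DMSO, was slightly larger in both topotecan libraries. This order depended on scaling. As a share of unscaled library counts the pool was 0.2095% and 0.2206% in topotecan and 0.2098% and 0.1644% in DMSO, so the groups overlapped. The makeup of the pool shifted towards Nefm and away from Nefl and Nefh.

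The 4 filament genes are short, whereas the drug was used against long genes. In a RefSeq annotation of the assembly GRCr8, Nefl spans 3.87 kb, Nefm 5.31 kb, Nefh 9.99 kb and Ina 11.6 kb. No build is named by the submitters, so spans serve only as a property of the genes. Among 2728 tested genes under 10 kb, the class of the neurofilament chains, the median log2 fold change was 0.15, with 15.6% lower and 26.0% higher. In this class 7.7% of genes had a lower log2 fold change than Nefh, 34.8% a lower one than Nefl and 77.4% a lower one than Nefm. Of 644 genes of that class with a mean log2 CPM within 1 of that of Nefh, 31 had a lower log2 fold change. The fall of Nefh, at -1.56, was also lower than the median of -1.20 among the 175 tested genes of 500 kb or more. Among the 3699 genes of 10 to 30 kb, the class of Ina, the median was 0.06, with 19.4% lower and 20.1% higher, and 83.3% had a lower log2 fold change than Ina.

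**Figure D4:**
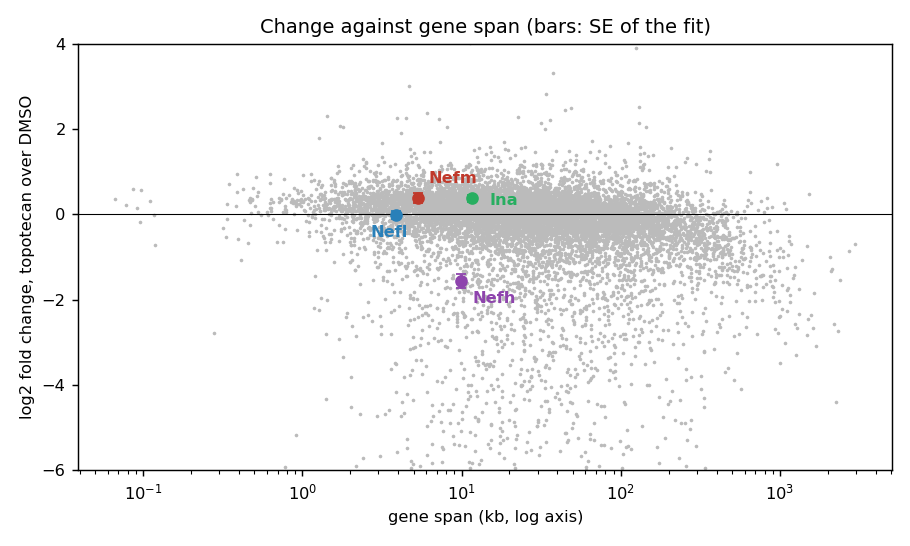
Log2 fold change, topotecan over DMSO (vertical axis), against gene span in kb (horizontal log axis) for 11727 tested genes with a known span, of which 190 lie outside the vertical range shown; coloured points are the filament genes and bars are SE. Nefl, Nefm and Ina lie within the dense band of short genes and Nefh lies below it at -1.56.

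The chromosomal neighbours did not share one pattern. Nefl and Nefm are adjacent protein-coding genes on chromosome 15 of GRCr8, and their log2 fold changes were -0.01 and 0.39. Nefh, on chromosome 14, lies beside Thoc5, a component of an mRNA export complex, at 0.30 (SE 0.08, edgeR adjusted p = 0.00792), and Ap1b1, a clathrin adaptor subunit, at -0.04 (SE 0.09, adjusted p = 0.729). Ina, on chromosome 1, lies between Nt5c2, a nucleotidase gene, at 0.01 (SE 0.10, adjusted p = 0.922), and Pcgf6, a Polycomb group gene, at 0.66 (SE 0.19, edgeR adjusted p = 0.0133). Against the summed pan-neuronal list neither Thoc5 (0.04, adjusted p = 0.799) nor Pcgf6 (0.41, adjusted p = 0.127) passed, and Ap1b1 was lower (-0.31, edgeR adjusted p = 0.018). With DESeq2 Pcgf6 did not pass (adjusted p = 0.0549).

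Among the measured filament genes, only Ina had a start-site sequence in the RefSeq promoter table (GRCr8), and it is shown for that reason. The stretch is chr1:255837879-255838178 on the plus strand, with 250 bases before the start and 50 from it on. Capitals mark matches on either strand to GGGCGG, the GC box bound by Sp1-type factors, and to CAGCTG, an E-box.
Ina: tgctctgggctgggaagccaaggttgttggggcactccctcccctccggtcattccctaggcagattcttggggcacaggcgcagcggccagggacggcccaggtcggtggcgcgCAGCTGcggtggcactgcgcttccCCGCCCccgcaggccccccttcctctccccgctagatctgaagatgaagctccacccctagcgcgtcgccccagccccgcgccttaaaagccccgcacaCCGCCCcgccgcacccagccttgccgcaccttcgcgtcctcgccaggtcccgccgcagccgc

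The Ina stretch holds GGGCGG 2 times, both on the minus strand, and CAGCTG 1 time, with no overlap between the matches. Of 33469 promoters of the same length, 33.1% hold GGGCGG and 15.1% hold CAGCTG. Sought as an exact match only, the TATA motif TATAAA is not in this window, and 14.2% of the promoters hold it. The half-site TGACG of the cAMP response element is also not in it, and 21.2% hold that motif. The box CCAAT is not in it either, and 37.5% hold that one. Its G and C content is 71.7%, against a median of 51.7% over all promoters. These matches describe the sequence and show no binding.

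Genes with the most similar profile over the 4 libraries were sought among those of like abundance, by the root mean square difference of log2 CPM centred on each gene's own mean. Nearest to Nefl were Arhgdia, an inhibitor of small GTPases, Cd81, a tetraspanin, and Wdr1, an actin-disassembly factor, at 0.025, 0.026 and 0.034 of 463 candidates. Nearest to Nefm were Pebp1, an inhibitor of Raf signalling, Ran, the GTPase of nuclear transport, and Ndufb8, a subunit of respiratory complex I, at 0.032, 0.069 and 0.071 of 236 candidates. Nearest to Nefh were Arid5a, an RNA-binding protein, Slc20a2, a phosphate transporter, and Necap2, an endocytic protein, at 0.081, 0.105 and 0.116 of 3006 candidates. Their log2 fold changes were -1.50 (SE 0.19), -1.42 (SE 0.14) and -1.58 (SE 0.12). Nearest to Ina were Eif1a, a translation initiation factor, Umps, an enzyme of pyrimidine synthesis, and Npm1, nucleophosmin, at 0.009, 0.012 and 0.018 of 1439 candidates. Profiles like that of Ina were common, with 409 genes within 0.1 of it, against 62 for Nefl, 4 for Nefm and 1 for Nefh. A likeness over 4 libraries rests on few points.

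Filament genes of glia and progenitors were among the deepest falls. Of 13 other intermediate filament genes listed, 10 were tested, of which 6 were lower and 1 was higher in topotecan, with a median log2 fold change of -0.72, against -0.01 over all genes tested. The shares over all genes were 23.5% lower and 16.2% higher. Gfap, the filament of astrocytes, averaged 0.0525 ± 0.0181 CPM in topotecan and 55.3 ± 4.73 CPM in DMSO (SD, n = 2 each). Vim, vimentin, averaged 1.76 ± 0.188 CPM in topotecan and 22.0 ± 5.60 CPM in DMSO, with a log2 fold change of -3.64 (SE 0.22, edgeR adjusted p = 1.1e-08). Nes, nestin, the filament of neural progenitors, was near the limit of detection, with 1 and 0 counts in topotecan and 25 and 14 in DMSO. Synm, Sync and Bfsp2, the remaining lower genes, did not pass with DESeq2 (adjusted p = 0.105, 0.0853 and 0.171), which left 3 lower. Lmna, the nuclear lamin A gene, averaged 20.6 ± 0.990 CPM in topotecan and 14.9 ± 1.99 CPM in DMSO, and rose by 0.46 (SE 0.14, edgeR adjusted p = 0.0163). Scaled to the summed pan-neuronal list it was at 0.21 and did not pass (adjusted p = 0.286). In the same libraries the astrocyte markers had a median log2 fold change of -6.69. Whether the loss of glial RNA has a part in the fall of Nefh was not tested.

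Genes for proteins that link filaments to the rest of the cytoskeleton were lower or did not pass. Of 6 tested members 3 were lower and none higher, against 23.5% lower and 16.2% higher over all genes. Their median log2 fold change was -0.34, against -0.01 over all genes. Plec, plectin, which ties intermediate filaments to other fibres, averaged 34.8 ± 3.52 CPM in topotecan and 77.3 ± 5.58 CPM in DMSO and had a log2 fold change of -1.15 (SE 0.11, edgeR adjusted p = 1.5e-06). Dst, dystonin, which spans 394 kb, was at -0.82 (SE 0.12, adjusted p = 8.2e-05). Map2, the dendritic microtubule protein gene, was at -0.47 (SE 0.09, adjusted p = 0.00138). Map1b, the most abundant of the list, averaged 3035 ± 80.9 CPM in topotecan and 2761 ± 130 CPM in DMSO and did not pass (0.14, SE 0.07, adjusted p = 0.133). Against the summed pan-neuronal list 5 of the 6 were lower, beside 4566 lower and 447 higher of all 12162 genes.

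Among kinases and phosphatases that act on filament heads and tails, 4 of 19 tested members were lower and 2 higher, with a median log2 fold change of 0.07. Set against the 23.5% lower and 16.2% higher over all genes, these counts do not mark the list. Cdk5, the kinase that phosphorylates the Lys-Ser-Pro repeats of Nefm and Nefh tails, averaged 317 ± 5.37 CPM in topotecan and 224 ± 38.7 CPM in DMSO, a log2 fold change of 0.50 (SE 0.10, edgeR adjusted p = 0.0015). Its activators moved in opposite directions and did not pass, with Cdk5r1 at 0.30 (edgeR adjusted p = 0.105) and Cdk5r2 at -0.46 (edgeR adjusted p = 0.153). Among the stress-activated kinases Mapk8, which encodes JNK1, was higher at 0.82 (SE 0.18, adjusted p = 0.00247). Mapk9 and Mapk10, which encode the other JNK proteins, were lower, at -0.55 (SE 0.12, adjusted p = 0.00254) and -0.62 (SE 0.09, adjusted p = 8.6e-05). Against the summed pan-neuronal list 7 members were lower and 1 higher, beside 4566 lower and 447 higher of all 12162 genes. On that scale Cdk5 was at 0.25 (edgeR adjusted p = 0.0633). Cdk5r2 was among the 7 lower members there, at -0.72 (edgeR adjusted p = 0.0183).

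Among motor genes 1 of 8 tested members was lower and 1 higher, with a median log2 fold change of 0.04. Over all genes tested 39.7% were called in either direction, a larger share than among these 8. Kif5a, the neuronal kinesin heavy chain known to carry neurofilaments, had a log2 fold change of -0.00076 (adjusted p = 0.995), but was lower with libraries scaled to the summed pan-neuronal list (-0.26, edgeR adjusted p = 0.0339). Kif5c, a related kinesin gene that spans 150 kb, averaged 64.7 ± 2.65 CPM in topotecan and 92.8 ± 7.65 CPM in DMSO and was at -0.52 (SE 0.10, edgeR adjusted p = 7.5e-04). Klc1, a kinesin light chain gene, was at 0.24 (SE 0.09, adjusted p = 0.0419), and at -0.02 relative to the summed pan-neuronal list. Dync1i1, a dynein intermediate chain gene and the most abundant of the list, was at 0.09 (SE 0.07, adjusted p = 0.366). With the summed pan-neuronal list as the scale 4 motor genes were lower and none higher, beside 4566 lower and 447 higher of all 12162 genes.

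Of 11 tested genes for turnover of filaments or binding of their messages 1 was lower and 2 were higher, with a median log2 fold change of 0.14. Beside the 23.5% lower and 16.2% higher over all genes, these counts do not mark the list. Uchl1, an abundant neuronal deubiquitinase, averaged 4274 ± 25.4 CPM in topotecan and 2491 ± 168 CPM in DMSO, a log2 fold change of 0.78 (SE 0.07, edgeR adjusted p = 9.7e-07). Sod1, superoxide dismutase, was at 0.25 (SE 0.08, adjusted p = 0.03), and at -0.01 relative to the summed pan-neuronal list. Capn2, a calpain protease gene, was at -0.45 (SE 0.10, adjusted p = 0.00304). Tardbp and Arhgef28, whose proteins bind the light chain message in human cells, were at -0.07 (adjusted p = 0.604) and -0.08 (adjusted p = 0.734). In the scaling to the summed pan-neuronal list Tardbp was lower (-0.33, edgeR adjusted p = 0.0255). The turnover list had 2 lower and 1 higher there, beside 4566 lower and 447 higher of all 12162 genes.

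**Figure D5:**
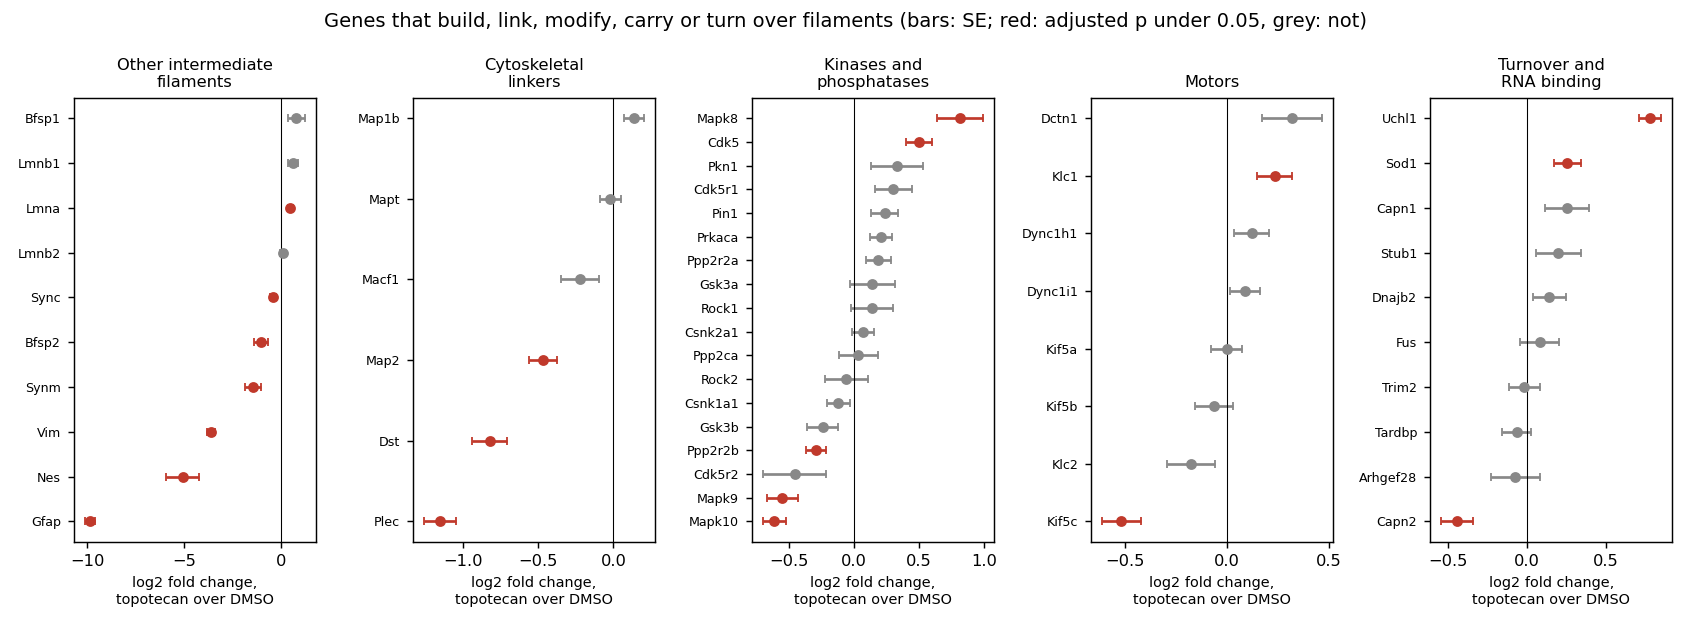
Log2 fold change, topotecan over DMSO (horizontal axes, of unequal range), of most tested genes of 5 lists that build, link, modify, carry or turn over filaments; bars are SE, red marks an adjusted p under 0.05 and grey one above it. Gfap, Nes and Vim lie furthest below 0, and most kinases, motors and turnover genes lie near it.

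Other neuronal genes in the same libraries moved in both directions. Of the 12 pan-neuronal genes 3 were lower and 5 higher, with a median log2 fold change of 0.20, beside 23.5% lower and 16.2% higher over all genes. Tubb3, the neuronal beta-tubulin gene, averaged 10980 ± 1025 CPM in topotecan and 8593 ± 1298 CPM in DMSO (0.35, SE 0.09, edgeR adjusted p = 0.00869), close to the values of Nefm and Ina. Elavl3, an RNA-binding protein gene of neurons, was at 0.34 (SE 0.12, adjusted p = 0.0325). Relative to the summed pan-neuronal list neither Tubb3 (0.10, edgeR adjusted p = 0.434) nor Elavl3 (0.08, edgeR adjusted p = 0.664) passed. Syt1, the vesicle calcium sensor gene, which spans 545 kb, was at -1.53 (SE 0.10, adjusted p = 4.3e-08), and Rbfox3, a splicing factor gene of 437 kb, at -0.78 (SE 0.15, adjusted p = 8.9e-04). Nefh, which spans 9.99 kb, was at -1.56, near Syt1 and below Rbfox3. Whether gene span has a part in these changes was not tested. Relative to the summed list 5 of the 12 pan-neuronal genes were lower and 1, Uchl1, was higher. Beside this, 4566 of all 12162 genes were lower and 447 higher on that scale.

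For the marker lists that follow, the shares over all genes were 23.5% lower and 16.2% higher. Among markers of glutamatergic neurons 1 of 7 was lower and 5 were higher (median 0.46). But in the scaling to the summed pan-neuronal list 2 were higher (median 0.20), beside 4566 lower and 447 higher of all 12162 genes. In that to its median ratio 3 were higher, beside 3488 lower and 995 higher of all genes. Neurod6, which encodes a helix-loop-helix factor of excitatory cortical cells, was at 1.23 (SE 0.08), and at 0.97 against the summed list. Neurod2 had few counts (18 and 12 in topotecan, 2 and 5 in DMSO) and did not pass with DESeq2 (adjusted p = 0.172). Among GABAergic markers 2 of 5 tested were lower and 2 higher (median -0.26), with Sst, a neuropeptide, at 1.80 (SE 0.11) and Gad2, a GABA-synthesising enzyme, at -0.71 (SE 0.13). Against the summed pan-neuronal list 3 GABAergic markers were lower and 2 higher. All 6 tested progenitor markers were lower (median -4.50). Of 9 markers of peripheral and cranial neurons with a row, where Prph is typical, 4 were tested and none passed. Their summed level was 4.44 and 4.72 CPM in topotecan and 4.57 and 5.44 CPM in DMSO. Microglia markers were near 0, with a summed level of 0.163 and 0.516 CPM in topotecan and 0.399 and 0.471 CPM in DMSO over 6 genes. The endothelial list had 1 tested gene, which was lower, the fibroblast and mural list had 1 lower and 1 higher of 2, and the Schwann cell list had 1 lower of 2, Pmp22, which oligodendrocytes may also express.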

How the data were processed

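RNA was sequenced in 2 topotecan and 2 DMSO libraries, and sample titles gave the groups and replicate numbers. The deposited file is 1 table of raw gene counts as whole numbers. Per the submitters' processing notes they used STAR and edgeR. Versions, genome build, annotation, counting tool and strand setting were not stated in the labels used here, so overlapping or antisense genes can share reads. Per the labels' protocols a small RNA library kit was used, yet 96.3% to 97.0% of each library's counts fell on protein-coding genes, and this mismatch was not resolved. Of the 21648 identifiers, 792 had more than 1 row, all with equal counts, and were used once. Replicates differed beyond sampling noise (chi-square per degree of freedom 9.34 in topotecan and 13.0 in DMSO).

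The deposited counts were tested with edgeR 4.0.16 in R 4.3.3 (quasi-likelihood test, treatment as the only term, TMM scaling, filterByExpr with a minimum count of 10 and a minimum total of 15, 2 residual degrees of freedom). Benjamini-Hochberg adjustment ran over the 12162 tested genes. In simulated data the fit recovered 90.9% of genes changed 2-fold and 59% of those changed 1.5-fold, with 8 false calls each time. Folds as small as those of Nefm (1.31) and Ina (1.30) were not among these. SE is the log2 fold change over the square root of F. CPM are counts per 1000000 scaled counts. Profiles used a prior count of 2. A span was found for 96.4% of tested genes, by Entrez number or symbol. Alternatives were RLE factors, total counts, scaling to the 12 pan-neuronal genes, leaving out 13 mitochondrial genes, other count filters, DESeq2 1.42.0, limma-voom (limma 3.58.1), a replicate block and leaving out each library. Scaling to the median ratio of the pan-neuronal list was added after seeing the data.

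The members and lists were chosen with earlier results of these data known. The rule for naming took from each list up to 3 of the largest rises and falls that passed and the most abundant gene. For each member it took the 3 nearest profiles among genes with a mean log2 CPM within 1. Not all genes that meet the rule are named, above all in the cell type lists, so the markers named there are a selection. Genes outside this rule, such as Synm, Sync, Bfsp2, Cdk5r1, Cdk5r2, Kif5a, Tardbp and Arhgef28, and the chromosomal neighbours, were chosen after their values were seen. Some list members are counted but not reported here by name.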

Additional observations from a re-analysis of the deposited data

How the results depend on the processing

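Nefh kept its direction and its call in all settings run, and its ratio to the other filament genes fell by 1.65 to 1.99 on the log2 scale when each library was left out in turn. Counts over all genes and the value of Ina moved most with scaling, and Nefm and Nefl moved with scaling and with single libraries. Scaling to the summed pan-neuronal list shifted the median over all genes by -0.26 on the log2 scale and gave 4566 lower and 447 higher genes (91.1% of calls lower, against 59.2% of 2854 lower and 1970 higher calls as reported). Scaling to the median ratio of that list moved the median by -0.12 and left 995 higher genes (77.8% of calls lower). With the summed list 2 filament genes were lower and 0 higher, with Nefl at -0.27, Nefm at 0.14 and Ina at 0.12. With the median ratio 1 was higher, and Nefm was at 0.27 and did not pass (edgeR adjusted p = 0.105). With DESeq2 1 was higher, as Nefm, at 0.40, did not pass. Nefl, which never passed otherwise, was at 0.00103 with RLE factors, 0.00106 with no count filter and 0.00107 with DESeq2. With each library left out, the number of higher genes ranged from 1208 to 2470 and fell by over 1.5 times without topotecan replicate 1 (1208) or replicate 2 (1260). The number of higher filament genes ranged from 1 to 2, Nefl from -0.14 to 0.14, and Nefm from 0.16 to 0.68. The ratio of Ina to the others ranged from -0.06 to 0.35. The cause was not tested. Same-numbered libraries did not deviate together (correlation -0.04 over genes). With replicate number as a block 2746 genes were lower and 1822 higher, Nefm was at 0.41 (adjusted p = 0.00508), and no filament call changed. The ratio without Prph was not run, since Prph was not analysed here. Nefh, at 293 to 1015 counts, has the least depth of the family.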
